A study of Mus musculus with 24 samples.

Results

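The comparison described here is that of T6E cells carrying DNMAML after treatment with a gamma-secretase inhibitor (GSI) against the same cells after DMSO. T6E cells come from a T-cell leukaemia of the mouse and need Notch1 to grow. The members were chosen by sample title: 3 arrays titled DNMAML-GSI and 3 titled DNMAML-DMSO, 6 of the 24 arrays of the series. All 6 samples carried DNMAML, a dominant negative form of Mastermind-like (MAML), and differed by 6 hours in either DMSO or 1 uM compound E, the GSI. The other 18 arrays are T6E cells with the empty vector MigR1, with intracellular Notch1 (ICN1) or with R1984A, an intracellular Notch1 that cannot dimerize, each after the same treatments, in groups of 3. The labels describe the cells as transfected. No source used here says whether the cells were clones or pools, or whether the 3 samples of a group grew as separate cultures, so the p-values reflect the spread among these samples alone, and that spread may be technical.

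Notch1 is a receptor that gamma-secretase cuts after ligand binding or, in this leukaemia, without normal control. The released intracellular part enters the nucleus, binds the DNA-binding protein Rbpj and recruits MAML, which brings the enzymes that switch target genes on. DNMAML occupies the Rbpj and Notch complex without recruiting those enzymes. GSI thus acts upstream of DNMAML, and the comparison asks which transcripts still respond to the loss of cleaved Notch when MAML is already blocked.

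The values are log2 expression values per gene as deposited, and a difference of 1 is a doubling. Across genes, r between arrays of the same DNMAML group lay from 0.989 to 0.994; genes are not replicates. Array medians ran from 3.90 to 4.18 over all 24 arrays, and values in or below that range are called near background here. The cells carried the T-lineage genes their label implies. Cd3e (mean 10.37 over the 6 arrays), Cd3d (9.66), Cd3g (9.73), Lat (10.46) and Thy1 (9.29) were all far above the array medians, and 15 of 18 T-cell markers measured exceeded the highest median. Of these 15, Cd28 (4.18) and Cd5 (4.24) exceeded it only just. Cd8a (3.81), Rag1 (3.22) and Rag2 (2.44) were near or below background. Of the markers of other cells, 0 of 7 for B cells, 1 of 11 for myeloid cells (the mast cell protease Cpa3, 9.35), 2 of 5 for erythroid cells and megakaryocytes, 2 of 8 for natural killer cells (Gzma, 10.12, and Prf1, 4.62) and 6 of 10 for stroma or epithelium exceeded it. The brightest for stroma or epithelium were Pecam1 (6.94) and Pdgfrb (6.42), above the T-cell markers Cd2 (5.51) and Cd4 (4.75). None of the 59 markers was called with GSI in DNMAML cells by the test used below. At an unadjusted p under 0.05 was 1 of them, beside 2.54% of all genes. This was Itga2b, an integrin chain of megakaryocytes (0.37, SE 0.14), near background at a mean of 4.07 and with overlapping groups.

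With GSI, 1 gene was called in DNMAML cells. Hey1, a transcriptional repressor of the HES and HEY family and a direct Notch target, fell by 0.72 on the log2 scale (SE 0.11, 95% interval -0.94 to -0.50), a level 39.4% lower, with an adjusted p of 0.014 in the limma fit over 19938 genes. This is a called share of 0.00502% of all genes, a fall in the 1 case. The next lowest adjusted p of any gene was 0.9999, and 507 genes (2.54%) had an unadjusted p under 0.05, where 996.9 would be expected if none differed. A count below that expected means that these p-values may be too large. The lack of other calls therefore does not show that no other gene responded. The main fit does not pair samples by replicate number, and whether this lowered the count was not tested.

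Hey1 was read at 9.22, 9.34 and 9.09 in DNMAML-DMSO replicates 1, 2 and 3, and at 8.68, 8.43 and 8.37 in DNMAML-GSI replicates 1, 2 and 3. All 3 GSI arrays lay below all 3 DMSO arrays, with 0.41 between the lowest DMSO and the highest GSI array. A separation of this kind in the lower direction was seen in 3.46% of all genes. Within replicate numbers the differences were -0.54, -0.92 and -0.71. For this gene alone, an exact two-sided permutation test of 3 arrays against 3 gave p = 0.1, the smallest it can give. Both groups were far above the array medians. The call of Hey1 was lost without DNMAML-DMSO replicate 1 (-0.72, adjusted p = 0.13), DNMAML-DMSO replicate 2 (-0.66, adjusted p = 0.28), DNMAML-GSI replicate 2 (-0.69, adjusted p = 0.22) or DNMAML-GSI replicate 3 (-0.66, adjusted p = 0.26), in limma fits of the remaining arrays. When only the 6 DNMAML arrays were fitted, the adjusted p was 1.

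In MigR1 cells Hey1 fell with GSI from 9.79 ± 0.10 to 8.79 ± 0.18 (SD, n = 3 arrays each), by 0.998 on the log2 scale (SE 0.11, adjusted p = 2.0e-05 in limma). In DNMAML cells the mean went from 9.22 ± 0.13 in DMSO to 8.49 ± 0.16 in GSI (SD, n = 3 each). Hey1 with DNMAML alone thus lay between the MigR1 levels without and with GSI: the lowest DNMAML-DMSO array, at 9.09, was above the highest MigR1-GSI array, at 8.90. The response of DNMAML cells was smaller than that of MigR1 cells by 0.27 (SE 0.15, 95% interval -0.04 to 0.59), a difference that was not called (unadjusted p = 0.081 in limma). In cells supplied with cleaved Notch1, the GSI difference of Hey1 was -0.02 (95% interval -0.24 to 0.20) with ICN1 and -0.12 (-0.34 to 0.10) with R1984A. Neither was called, and in both constructs all GSI arrays read 9.84 or more.

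**Figure D1:**
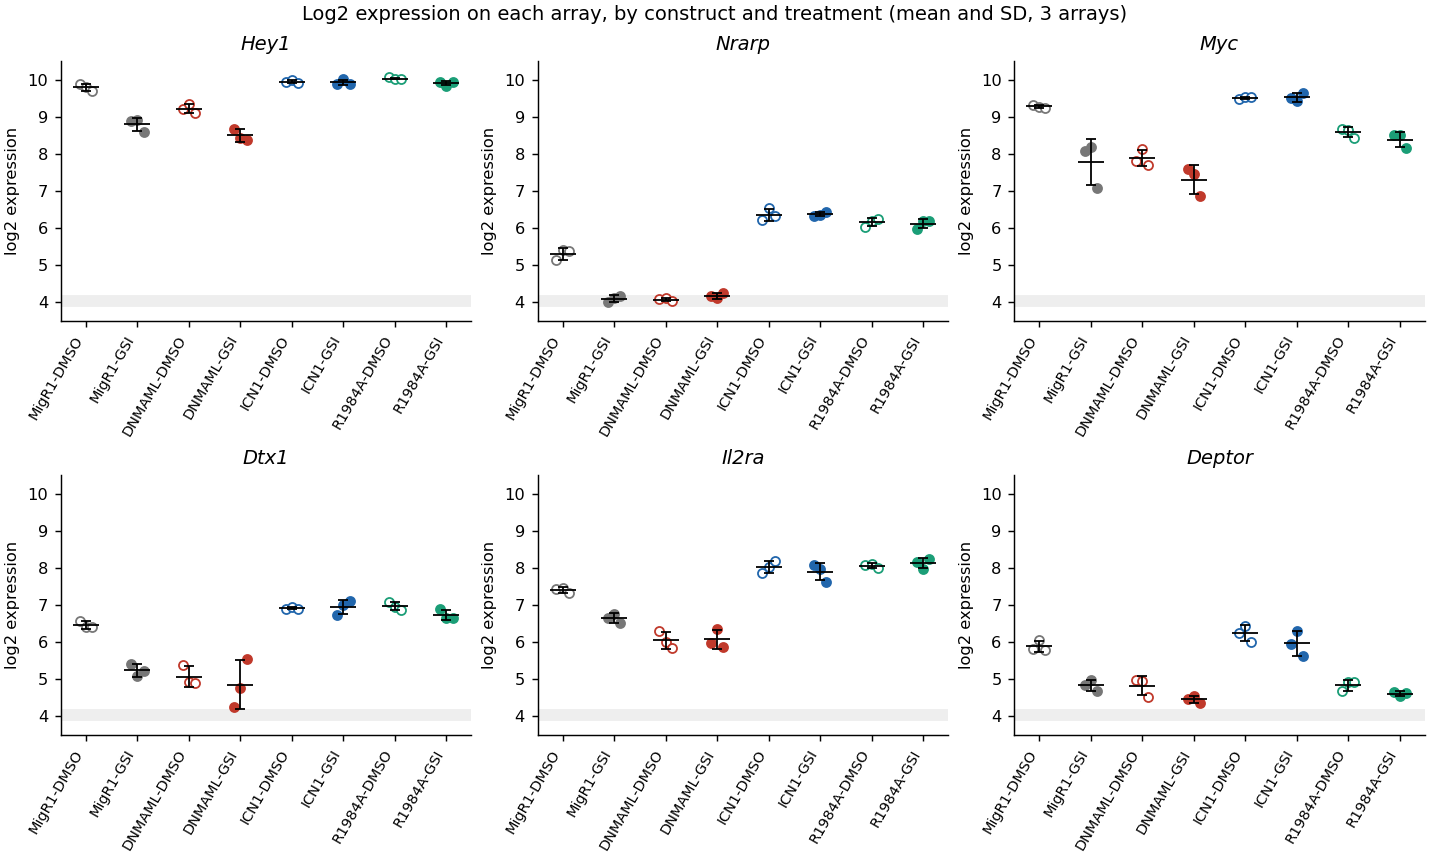
Log2 expression (vertical axis) of 6 Notch targets on every array, by group. Open points are DMSO, filled points GSI, black bars the mean and SD of 3 arrays, and the grey band the range of the array medians from 3.90 to 4.18. In DNMAML cells (red) Hey1 separates GSI from DMSO, and Nrarp lies on the grey band or just above it in both.

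Of 6 measured members of the HES and HEY family, Hey1 was the 1 called. Hes1, the classic Notch-induced repressor, read 4.20, 4.21 and 4.04 in DNMAML-DMSO and 4.39, 4.35 and 4.15 in DNMAML-GSI. These groups overlap, the difference was 0.14 (95% interval -0.15 to 0.43), and all 6 values are close to background. Heyl, a related repressor, was at 0.30 (SE 0.13, unadjusted p = 0.035), with the 3 GSI arrays (4.35 to 4.72) above the 3 DMSO arrays (4.22 to 4.27), and was not called. Hes5 (0.05), Hes7 (-0.12) and Hey2 (-0.10) had intervals that include 0, Hey2 at a mean of 2.57, below background.

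Among genes that feed back on Notch, Nrarp stood apart. Nrarp, an ankyrin-repeat protein that promotes loss of cleaved Notch, read 4.07, 4.10 and 4.02 in DNMAML-DMSO and 4.16, 4.10 and 4.25 in DNMAML-GSI. All 3 GSI arrays were above the 3 DMSO arrays, by very little. The difference was 0.11 (SE 0.11, 95% interval -0.11 to 0.33), not called. In MigR1 cells the same gene fell by 1.21 (SE 0.11, adjusted p = 1.5e-06 in limma), from 5.31 ± 0.16 to 4.09 ± 0.09 (SD, n = 3 each). Nrarp was the 1 gene of 19938 (0.00502%) whose response to GSI was called as different between DNMAML and MigR1 cells, by 1.32 (SE 0.15, 95% interval 1.01 to 1.63, adjusted p = 2.0e-04 in limma). The level in DNMAML-DMSO, 4.07, was already that of MigR1-GSI, 4.09, and both lie within the range of the array medians. With the replicate number as a block, 4 genes were called as different between the responses, Nrarp with Mfsd2a (1.34, adjusted p = 0.027), Serpinb8 (1.20, adjusted p = 0.018) and Capn5 (1.08, adjusted p = 0.027). With the block set within each construct there were 7, the same 4 and Uaca, Rag1 and Ccr8. Without the block, leaving out MigR1-GSI replicate 1 gave 3 genes and leaving out DNMAML-GSI replicate 3 gave 2, Nrarp among them each time, while leaving out all replicate 2 or all replicate 3 arrays gave 0.

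The sequence just before the start of Nrarp is shown because its response was the 1 called as different in the main limma fit. It is set against that of Serpinb8, a serine protease inhibitor that fell with GSI in MigR1 cells and had no call in DNMAML cells, chosen after its values and sequence were seen because its window holds matches to the Rbpj motif. Each run is the 250 bases before the gene's start in RefSeq on GRCm38.p6, plus strand, with matches to TGGGAA or GTGGGAA, searched on both strands, in capitals. The shorter word is contained in the longer.
Nrarp, chr2:25180508-25180757: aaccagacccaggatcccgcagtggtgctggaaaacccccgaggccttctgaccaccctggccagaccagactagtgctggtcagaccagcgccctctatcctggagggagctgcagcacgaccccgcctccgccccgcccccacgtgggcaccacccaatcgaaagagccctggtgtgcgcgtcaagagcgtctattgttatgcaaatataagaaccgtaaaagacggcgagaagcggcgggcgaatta
Serpinb8, chr1:107589756-107590005: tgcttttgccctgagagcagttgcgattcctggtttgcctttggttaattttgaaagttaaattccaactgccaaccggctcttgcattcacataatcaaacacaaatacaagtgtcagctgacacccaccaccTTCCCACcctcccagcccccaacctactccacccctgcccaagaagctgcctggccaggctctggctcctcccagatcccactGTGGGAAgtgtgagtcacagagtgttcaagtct
The Nrarp window holds no match. The Serpinb8 window holds 2, in opposite orientations, the TGGGAA of one starting 32 bases before the gene and the other match starting 116 bases before it. Among 32851 RefSeq windows of this length 21.6% hold TGGGAA and 5.42% the longer GTGGGAA on either strand, so such matches are common. Of the 22 genes called with GSI in MigR1 cells that have a window in the table, 4 hold TGGGAA, and of 21 listed Notch targets with a window, 7. Hey1 and Myc have no window in the table. A match describes letters only, and no match says nothing on binding elsewhere.

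Dtx1, a Deltex protein that binds Notch and attaches ubiquitin, read 5.39, 4.92 and 4.90 in DNMAML-DMSO and 4.25, 4.77 and 5.55 in DNMAML-GSI. Its GSI arrays spread over more than the whole range of the DMSO arrays, and the difference was -0.22 (95% interval -0.64 to 0.21). Within replicate numbers it went from -1.14 in replicate 1 through -0.15 in replicate 2 to 0.65 in replicate 3, so the 3 pairs disagree in sign. In MigR1 cells the Dtx1 pairs were -1.16, -1.33 and -1.20. The receptor genes Notch1 (0.06, 95% interval -0.21 to 0.32) and Notch3 (-0.03) were not called in DNMAML cells.

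Of the growth genes under Notch control, Myc and Deptor had the lowest values in DNMAML cells, without a call. Myc, a transcription factor that drives cell growth, read 7.81, 8.12 and 7.71 in DNMAML-DMSO and 7.59, 7.45 and 6.85 in DNMAML-GSI. The groups do not overlap, and each pair was negative (-0.21, -0.67 and -0.86). The difference was -0.58 (SE 0.21, 95% interval -1.02 to -0.14, unadjusted p = 0.011, adjusted p above 0.99 in limma). MigR1 cells had -1.5 (SE 0.21) for Myc. The lowest array in DNMAML-GSI and the lowest in MigR1-GSI, at 7.07, both carry replicate number 3. Deptor, an inhibitor of mTOR and a reported Notch1 target, was at -0.37 (SE 0.15, unadjusted p = 0.026), from 4.99, 4.96 and 4.52 in DMSO to 4.47, 4.54 and 4.36 in GSI, with the groups overlapping through the replicate 3 DMSO array. It was at -1.06 (SE 0.15) in MigR1 cells. The cyclins Ccnd1 (0.23) and Ccnd3 (0.03), the kinase Cdk6 (0.14), the growth factor receptor Igf1r (0.08) and the ubiquitin ligase subunit Skp2 (0.14) had intervals that include 0.

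T-cell genes under Notch control were not called in DNMAML cells, 10 of 10 measured, where 0.00502% of all genes were called. Il2ra, which encodes CD25 of the receptor for interleukin-2, read 6.30, 6.00 and 5.83 in DNMAML-DMSO and 5.98, 6.35 and 5.87 in DNMAML-GSI. The groups overlap fully, at 0.03 (95% interval -0.27 to 0.32). In MigR1 cells Il2ra fell by 0.76 (SE 0.14). Its DNMAML-DMSO mean, 6.04, was below the MigR1-GSI mean, 6.64, and far above background. Runx1, which controls blood cell formation, was at -0.15 (95% interval -0.38 to 0.07) against -0.69 (SE 0.11) in MigR1 cells. Ptcra, part of the receptor of immature T cells, was at 0.02, with DNMAML arrays between 3.95 and 4.47, beside a highest array median of 4.18. Hey1 and Il2ra are both listed as targets that do not need Notch dimerization, and their responses in DNMAML cells were -0.72 and 0.03. The 5 listed paired-site targets, Hes1, Hes5, Nrarp, Myc and Ptcra, had a median of 0.05 in DNMAML and -0.45 in MigR1 cells.

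**Figure D2:**
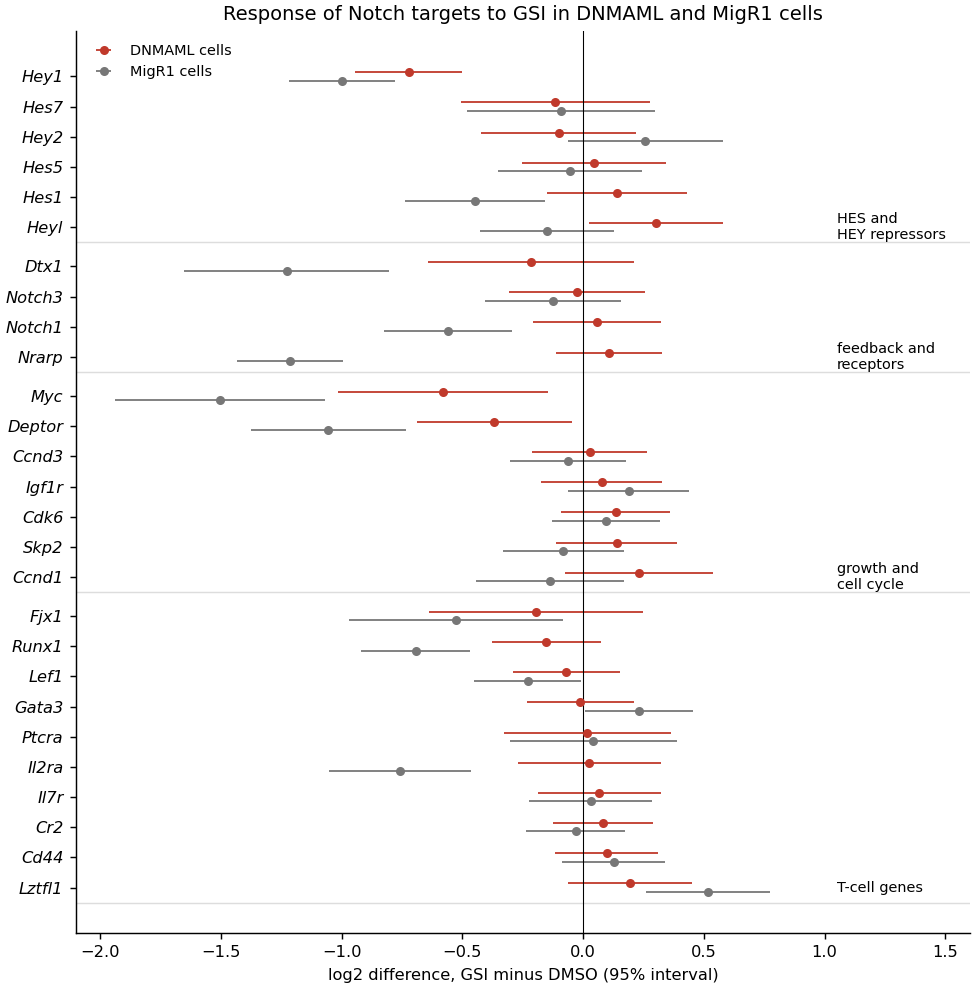
GSI minus DMSO log2 difference (horizontal axis) of the 27 measured Notch targets, by role, with 95% intervals of the limma fit, in DNMAML (red) and MigR1 (grey) cells. Hey1, Myc and Deptor have DNMAML intervals below 0, and Heyl one above 0. Hey1 was the 1 gene called in DNMAML cells.

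Over all 27 measured Notch targets, 1 was called lower and 0 higher in DNMAML cells, against 7 and 0 in MigR1 cells, where 0.166% of all genes were called, 0.135% lower and 0.0301% higher. At an unadjusted p under 0.05, 3 were lower and 1 higher in DNMAML cells, where all genes gave 1.3% lower and 1.24% higher. Their median difference was 0.03 in DNMAML cells, beside 0.00125 over all genes, and -0.13 in MigR1 cells. The sign of this median was not stable: it was -0.0079 without DNMAML-GSI replicate 2 and 0.07 without DNMAML-GSI replicate 1.

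The genes called with GSI in MigR1 cells were read next in DNMAML cells. These were 27 lower and 6 higher genes. The calls numbered 82 in all with the replicate number as a block, and 4 when only the groups compared were fitted. The MigR1 differences come from arrays that the DNMAML differences do not use. The calls, however, also rest on a spread estimated over all groups, to which the DNMAML arrays contributed. The choice of genes was thus not independent of the DNMAML arrays. A small spread among those arrays favours both a call and groups without overlap. How far this raised the count without overlap given next was not tested. In DNMAML cells 23 of the 27 had a difference below 0 (49.6% of all genes did), and 11 of 27 had all 3 GSI arrays below all 3 DMSO arrays (3.46% of all genes). The median of the 27 was -0.19 in DNMAML cells, beside 0.00125 over all genes, and -0.93 in MigR1 cells, where their selection makes large values likely. All 27 were smaller in size in DNMAML than in MigR1 cells, which the same selection also makes likely. Hey1 alone was called.

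Averaged over the 27 genes, the arrays read 6.44, 6.30 and 6.30 in DNMAML-DMSO and 6.16, 6.19 and 6.09 in DNMAML-GSI, so the groups do not overlap. MigR1-DMSO arrays read 7.34, 7.39 and 7.32 and MigR1-GSI arrays 6.50, 6.48 and 6.25. In 10 of the 27 the mean in DNMAML-DMSO was above that in MigR1-GSI, and in the others below it. Hey1 (0.43 above), Mfsd2a (0.42), Taf1a (0.41), Trib2 (0.34), Uaca (0.28) and Runx1 (0.22) were the 6 whose DNMAML-DMSO arrays were all above the MigR1-GSI arrays. Of these 6, Hey1 was called with GSI in DNMAML cells, and the other 5 were between -0.05 (Uaca) and -0.25 (Taf1a). With GSI added, 20 of the 27 means in DNMAML cells were below those of MigR1-GSI. No share over all genes is given beside these counts of 10, 6 and 20. The 27 genes were chosen partly on low MigR1-GSI readings, which favours DNMAML means above those. In cells with cleaved Notch1 the median GSI difference of these 27 genes was -0.07 (ICN1) and -0.08 (R1984A).

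Some of the 27 are known for other roles. Zcchc2, a zinc-finger protein, read 7.53, 7.56 and 7.62 in DNMAML-DMSO and 7.03, 7.29 and 7.23 in DNMAML-GSI, without overlap, at -0.38 (SE 0.12, unadjusted p = 0.0047, not called). Dennd2d, a Rab exchange factor, was at -0.35 (SE 0.13, unadjusted p = 0.011), and the ribosome biogenesis gene Rrp1b at -0.37 (SE 0.12, unadjusted p = 0.0044), both without overlap and not called. Mfsd2a, a lysophospholipid transporter with the largest fall in MigR1 cells (-1.59), read 5.21, 5.33 and 5.32 in DNMAML-DMSO and 5.22, 5.32 and 4.59 in DNMAML-GSI. Its difference of -0.25 (95% interval -0.59 to 0.10) rests on the replicate 3 GSI array, the 1 array apart from the rest. The protease gene Capn5 (-0.15), Serpinb8 (-0.09) and the kinase-like scaffold gene Prag1 (0.06) had intervals that include 0, Serpinb8 and Prag1 close to background. Of the 6 genes that rose with GSI in MigR1 cells, 0 were called in DNMAML cells (2.54% of all genes had an unadjusted p under 0.05, and 0 of these 6), with a median of 0.04 against 0.69. Ccng2, a cyclin that rises when growth signals drop, was at 0.05 (SE 0.16) in DNMAML and 0.84 (SE 0.16) in MigR1 cells.

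**Figure D3:**
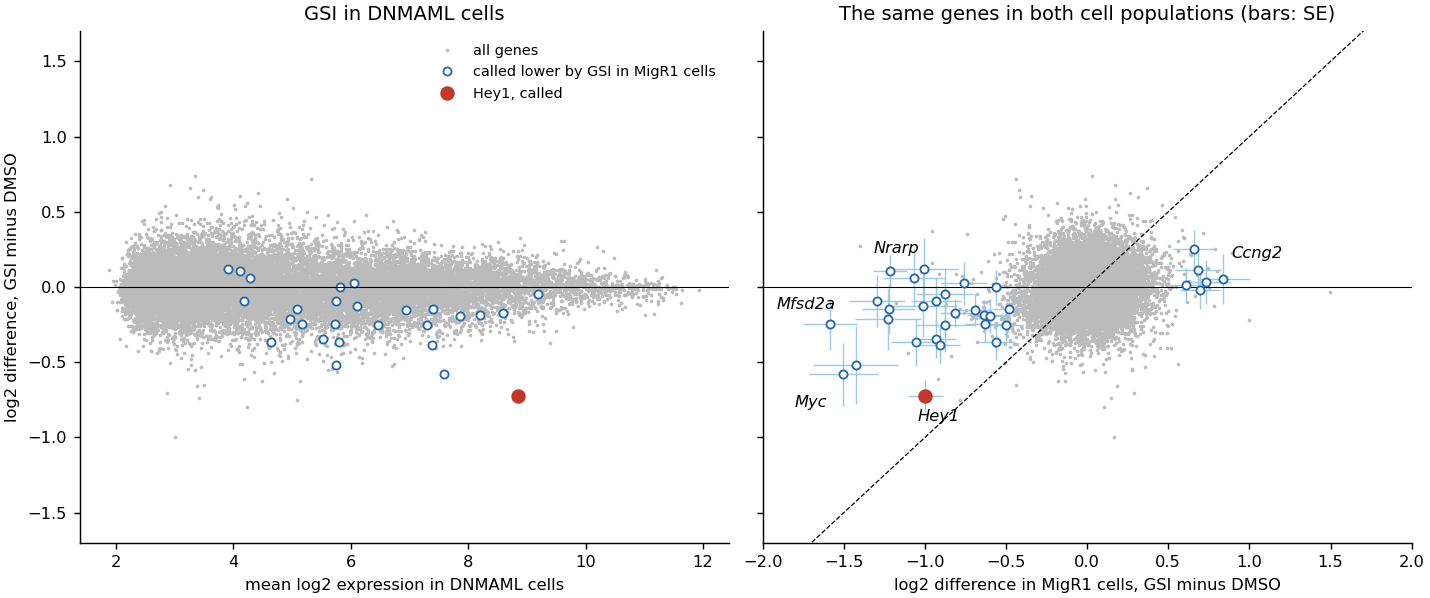
Left, GSI minus DMSO log2 difference of each of 19938 genes in DNMAML cells (vertical axis) by mean log2 expression, with the 27 genes called lower by GSI in MigR1 cells as open blue points and Hey1 in red. Right, the same difference against that in MigR1 cells, with SE bars for the 33 genes called there and a dashed line of equal response; Hey1 lies at -0.72 in DNMAML and -0.998 in MigR1 cells, and Nrarp near 0 on the vertical axis.

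Genes of ribosome production and other Myc targets lay below 0 together in DNMAML cells, with 0 of 53 called in limma (0.00502% of all genes). At an unadjusted p under 0.05, 7 were lower and 0 higher, beside 1.3% lower and 1.24% higher of all genes. Members of the list were read on the same arrays and are not replicates, so a shared shift counts in many of them. In all, 49 of the 53 had a difference below 0, with a median of -0.14 in DNMAML and -0.19 in MigR1 cells. Among all 3272 genes at least as bright as the first quartile of the list (7.05), the median was -0.00021 and 50.1% lay below 0. In 10 of the 53 (18.9%) the GSI arrays were all below the DMSO arrays, beside 2.41% of those 3272 genes. Averaged over the list, the arrays read 8.05, 8.01 and 7.79 in DNMAML-DMSO and 7.91, 7.85 and 7.61 in DNMAML-GSI. The groups overlap, because replicate 3 was lowest in both, and each pair was lower in GSI. The R1984A arrays read 8.36, 8.36 and 8.13 in DMSO and 8.28, 8.14 and 8.03 in GSI, and the ICN1 arrays 8.60, 8.56 and 8.51 in DMSO and 8.59, 8.52 and 8.42 in GSI. Each of these pairs was lower in GSI too, so this direction was also seen in cells supplied with cleaved Notch1. The sizes were not alike. Each ICN1 pair differed by less than the same-numbered DNMAML pair, as did R1984A replicates 1 and 3, while R1984A replicate 2 differed by more. The MigR1 arrays read 8.44, 8.41 and 8.27 in DMSO and 8.25, 8.26 and 7.89 in GSI. The median was -0.09 without DNMAML-DMSO replicate 1, -0.07 without DNMAML-GSI replicate 3 and -0.23 without DNMAML-DMSO replicate 3. Polr1a, the largest subunit of RNA polymerase I, was at -0.31 (SE 0.11, unadjusted p = 0.0078), from 6.87, 6.89 and 6.69 to 6.53, 6.51 and 6.49. Gnl3, the nucleolar GTPase nucleostemin, was at -0.31 (SE 0.11, unadjusted p = 0.0097), from 8.99, 8.85 and 8.67 to 8.69, 8.56 and 8.33. Ndufaf4, a mitochondrial assembly factor, was at -0.29 (SE 0.11, unadjusted p = 0.016). The nucleolar protein genes Nolc1 (-0.29) and Wdr75 (-0.21) and the helicase gene Ddx21 (-0.30) were the others at an unadjusted p under 0.05, beside Myc itself.

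No listed gene of the pathway that makes and reads the Notch signal was called in DNMAML cells, where 0.00502% of all genes were called. The lists held 5 ligands, 4 receptors and 9 genes of gamma-secretase and the sheddases. They also held 11 of the nuclear complex and 13 of Notch turnover and sugar modification. Each list had 0 called, the likely count at that share. At an unadjusted p under 0.05 were Dtx2 (-0.29, SE 0.09), near background, and Dtx3 (-0.36, SE 0.14), both relatives of Dtx1. The 18 genes of other gamma-secretase substrates, which GSI also spares from cleavage, lay between -0.09 and 0.20 with a median of 0.05 and 0 at an unadjusted p under 0.05.

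No gene of the cell-cycle and stress lists was called in DNMAML cells, the likely outcome where 0.00502% of all genes were called. The medians were -0.03 for 24 G1/S genes, 0.03 for 26 G2/M genes, 0.05 for 21 quiescence genes, 0.11 for 16 cholesterol synthesis genes, -0.0078 for 20 amino acid stress genes and -0.02 for 16 interferon-response genes. Of the G2/M genes, 20 of 26 lay above 0 and 3 had all GSI arrays above all DMSO arrays, and in MigR1 cells their median was 0.16. Of the cholesterol synthesis genes, 11 of 16 lay above 0 and 2 had all GSI arrays above all DMSO arrays, with a median of 0.15 in MigR1 cells. Over all genes 3.8% were separated in that direction. Single genes at an unadjusted p under 0.05 were Ddit3, a transcription factor induced by endoplasmic reticulum stress, at 0.33 (SE 0.11), from 7.09, 7.02 and 7.07 to 7.51, 7.37 and 7.29, and the forkhead factor Foxp1 at 0.29 (SE 0.13). Both had all GSI arrays above all DMSO arrays, and neither was called.

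**Figure D4:**
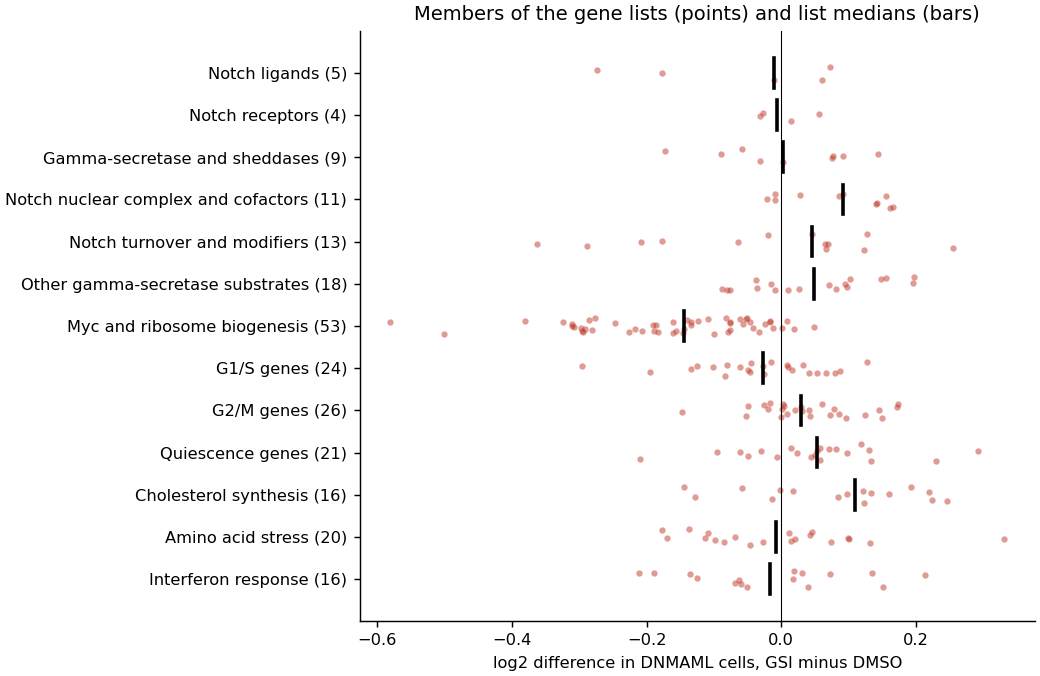
GSI minus DMSO log2 difference in DNMAML cells (horizontal axis) of each measured member (points) of 13 gene lists, with the list median as a black bar and the number of members in brackets. The 53 Myc and ribosome biogenesis genes have a median of -0.14, and the other medians lie between -0.03 and 0.11.

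Beyond these lists, the genes with the lowest unadjusted p and no overlap of groups were not called. Of 20 such genes, 10 in each direction, 11 had a mean below the highest array median. Among those well above it on the lower side were Pacrgl (-0.35, SE 0.10), from 7.86, 7.71 and 7.66 to 7.35, 7.45 and 7.38, the ADP-dependent glucokinase gene Adpgk (-0.46, SE 0.13) and the potassium chloride transporter Slc12a7 (-0.44, SE 0.13). On the higher side were Ttc28 (0.48, SE 0.13), from 5.74, 6.22 and 6.11 to 6.58, 6.50 and 6.42, the endoplasmic reticulum stress gene Herpud1 (0.48, SE 0.13), and Nhsl1 (0.44, SE 0.12). Zfp345 had the largest size, -0.997 (SE 0.26), from 4.06, 3.80 and 2.64 to 2.53, 2.60 and 2.39, values below or near background with the replicate 3 DMSO array apart from the other two. It was called without that array (-1.43, adjusted p = 0.011 in limma) and with all replicate 3 arrays left out (-1.37, adjusted p = 0.011), and in none of the other settings run. The other genes of this group were Amh (-0.74), Defb8 (-0.71), Zbed5 (-0.80), ccdc198 (-0.42), Tcf21 (-0.47) and Afmid (-0.45) on the lower side, and Cd59a (0.45), Spag6 (0.46), Slc4a11 (0.54), Smoc2 (0.45), Cavin2 (0.46), Scrg1 (0.40) and Fam189a2 (0.43) on the higher. The 95% interval of the median gene reached 0.30 to either side of its estimate. Smaller differences were thus mostly not resolved with 3 arrays against 3. That interval is for a gene taken alone, and a call over all genes asked for more. Larger differences such as Zbed5 (-0.80) and Zfp345 (-0.997) were not called in the main fit. The lack of a call thus does not exclude differences above 0.30.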

How the data were processed

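RNA of 24 samples was read on Affymetrix Mouse Gene 1.0 ST arrays. The authors deposited log2 expression for 35556 probe sets (1.28 to 13.47). The submitters' processing notes name oligo and limma; no source used here states the background correction, normalization or summarization. The log2 scale was read from the range, and no scaling was added. Of the probe sets, 21789 had 1 gene symbol, 1621 several and 12146 none; 21698 matched a RefSeq gene identifier. Each gene was read from its brightest probe set (mean of all 24 arrays), which left 19938 genes, with no filter on dim ones.

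Differences were fitted by limma 3.58.1 (R 4.3.3) in a model of all 8 group means and 24 arrays (16 residual and 6.56 prior degrees of freedom), and a gene was called at a two-sided Benjamini-Hochberg adjusted p under 0.05 over all genes. The fit was run on simulated data with independent noise on each array. That simulation leaves out shared deviations of same-numbered samples, so it does not bear on them. The difference of responses is the DNMAML minus the MigR1 contrast. Same-numbered samples deviated together (r of at least 0.168 in DNMAML cells and 0.106 over all pairs of groups in the difference of responses). Some other-numbered samples did too. DNMAML-DMSO replicate 2 with DNMAML-GSI replicate 1 had r = 0.220, against 0.168 and 0.176 for same numbers 1 and 2. The main fit leaves the titles' replicate number out. The blocked fits and the differences within replicate numbers take it as pairing, which these values do not settle. The blocked fits are given where they change a call or a count.

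The comparison and the gene lists were chosen with earlier results of these data known. The genes named are those called, up to 10 each way not called with the lowest p and no overlap, the Notch targets, up to 12 genes called with GSI in MigR1 cells, others of those 33 singled out after their values were seen, and members of other lists with the lowest p. RIKEN clones, gene models, small RNAs, olfactory and vomeronasal receptors and antigen receptor segments were left out of naming.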

Additional observations from a re-analysis of the deposited data

Results flagged for a closer look

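The response of Nrarp to GSI differed between DNMAML and MigR1 cells by 1.32 (SE 0.15, adjusted p = 2.0e-04 in limma), the 1 gene for which the test of the difference itself was called. In MigR1 cells all 3 pairs were lower in GSI (-1.12, -1.31 and -1.21), and in DNMAML cells the pairs were 0.09, 0.0024 and 0.23. Of the 6 DNMAML arrays, DNMAML-GSI replicate 3 read 4.25, just above the range of the array medians, and the others lie within that range.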

How the results depend on the processing

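Fitting only the groups compared left 0 genes called in DNMAML cells (Hey1 -0.723, adjusted p = 1 in limma) and 4 in MigR1 cells. The other 10 planned settings that keep all arrays left Hey1 called in DNMAML cells, adjusted p from 5.4e-04 to 0.025. Leaving out arrays gave 0 to 2 called genes in DNMAML cells, with Hey1 between -0.8161 and -0.626, and its call was lost in 4 of 6 single-array fits and in all 3 that dropped a whole replicate number. Responses called as different between DNMAML and MigR1 cells numbered 2 at an adjusted p under 0.10, 2 with array weights, 2 with an intensity trend, 4 with the replicate block, 7 with the block within construct, and 0 to 3 with arrays left out. MigR1 cells had 52 calls after a second quantile normalization, 51 with array weights, 82 with the replicate block, 64 with the block within construct, and 2 to 21 with arrays left out. The replicate block changed no call in DNMAML cells. The cause of these changes was not tested.

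With arrays left out, the Notch target median ran from -0.0079 to 0.0976, and 5 genes changed sign in DNMAML cells: Dtx1 (-0.6487 to 0.2482), Il2ra (-0.1398 to 0.1967), Serpinb8 (-0.2382 to 0.0363), Prag1 (-0.1502 to 0.3304) and Taf1a (-0.4732 to 0.0084). Heyl in MigR1 cells ran from -0.2939 to 0.0079. The medians of the Myc list (-0.2287 to -0.0743) and of the 27 genes lowered in MigR1 cells (-0.2349 to -0.1403) were added as checks after the data were seen and stayed below 0. With 3 arrays a group and values near the array medians for Nrarp, Hes1, Heyl and Serpinb8, small differences were not resolved.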
